A study of Gallus gallus with 6 samples.

Results

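Genes of calcium uptake into the sarcoplasmic reticulum and of calcium buffering were followed in soleus, a leg muscle, and pectoralis major, the breast muscle, of broiler chickens (Gallus gallus) aged 180 days. They were chosen by name, with earlier results of these data known. Of 7 listed symbols, 6 were found among the 18239 genes of the deposited table, namely the calcium pumps ATP2A2 (gene number 396446) and ATP2A3 (395707), the pump inhibitors PLN (396378) and SLN (100857277), and the buffers CASQ2 (395198) and PVALB (396459). HRC, a calcium-binding protein of the reticulum lumen, and ATP2A1, the pump of fast fibres in mammals, were not analysed here. There were 3 libraries of total RNA from each muscle, the labels name no treatment, sex or genotype, and the series set the muscles against each other because their fibre type composition differs. No label tells whether replicate libraries are of different birds; p-values therefore cover the spread between these libraries alone, which may be technical. Values are FPKM, fragments normalized by the authors to gene length and library total. Levels are set side by side between genes on that basis. Their order and ratios thus depend on the length used for each gene, from 0.944 kilobases for SLN to 9.851 kilobases for ATP2A2. Whether these are the lengths expressed in each muscle was not tested.

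Relaxation of a muscle fibre depends on pumps of the SERCA family, which carry calcium from the cytosol back into the sarcoplasmic reticulum. ATP2A2 is known mainly for the pump of slow-twitch and cardiac muscle, though not only from these. ATP2A3 encodes a pump known mainly from non-muscle cells such as endothelial and blood cells. PLN (phospholamban) and SLN (sarcolipin) are very small membrane proteins that bind the pump and lower its activity. Phosphorylation of phospholamban lifts its inhibition. Sarcolipin can uncouple ATP splitting from transport and so releases heat. CASQ2 (calsequestrin) stores calcium in the lumen of the reticulum, and PVALB (parvalbumin) binds calcium in the cytosol and, in mammals, is typical of fast fibres.

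Soleus libraries held 38534335 to 39079981 fragments and pectoralis major libraries 36309597 to 37123092. Mitochondrially encoded genes took 19.6 to 23.7% of the soleus fragments and 7.03 to 8.66% of the pectoralis major fragments. Markers were checked against the labels. Of 8 slow fibre markers, 7 were found, and they summed to 9820 to 13004 FPKM in soleus libraries, against 24.3 to 28.0 FPKM in pectoralis major libraries. The 9 fast fibre markers found of 11 summed to 24797 to 32116 FPKM in soleus libraries and 54734 to 61569 FPKM in pectoralis major libraries. Fast fibre transcripts were thus abundant in both muscles. Singly, 4 of the 9 fast fibre markers were called higher in soleus, 4 lower, and 1 did not pass, with a median log2 difference of -0.25. Of all tested genes, 40.0% were called higher and 17.4% lower. In whole muscle, fewer cells of a type and less RNA per cell cannot be told apart. Log2 differences are those of soleus minus pectoralis major after adding 1 to each FPKM, which makes the change of low genes look smaller than it is. They were tested with limma, two-sided, with Benjamini-Hochberg adjustment over the 9616 genes that reached 1 FPKM in 3 or more libraries.

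All 6 genes could be tested, PLN and PVALB only because their 3 soleus libraries reached 1 FPKM. The filter thus let PLN and PVALB in through the muscle where they are high, and their calls are to be read with that limit. ATP2A2, PLN and PVALB were higher in soleus by large amounts, ATP2A3 was higher by a small amount, SLN was lower, and CASQ2 did not pass the test. So 4 of 6 rose and 1 of 6 fell at an adjusted p under 0.05. Across all tested genes 40.0% rose and 17.4% fell, together 57.3%, so the count by itself does not set these genes apart. Of the calls over all genes, 69.7% were higher in soleus as deposited, 41.7% under median-ratio scaling, 48.1% under quantile normalization, 81.4% when mitochondrial transcripts were excluded from the library totals and 55.4% among genes averaging 5 FPKM or more. As deposited, all tested genes had a median log2 difference of 0.26. The same median came to -0.04 with median-ratio scaling, -0.0031 with quantile normalization and 0.45 when mitochondrial transcripts were excluded. Small differences are read against this shift. The muscles did not overlap in FPKM for 5 of the 6 genes, CASQ2 being the exception, and for 64.9% of all tested genes.

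**Figure D1:**
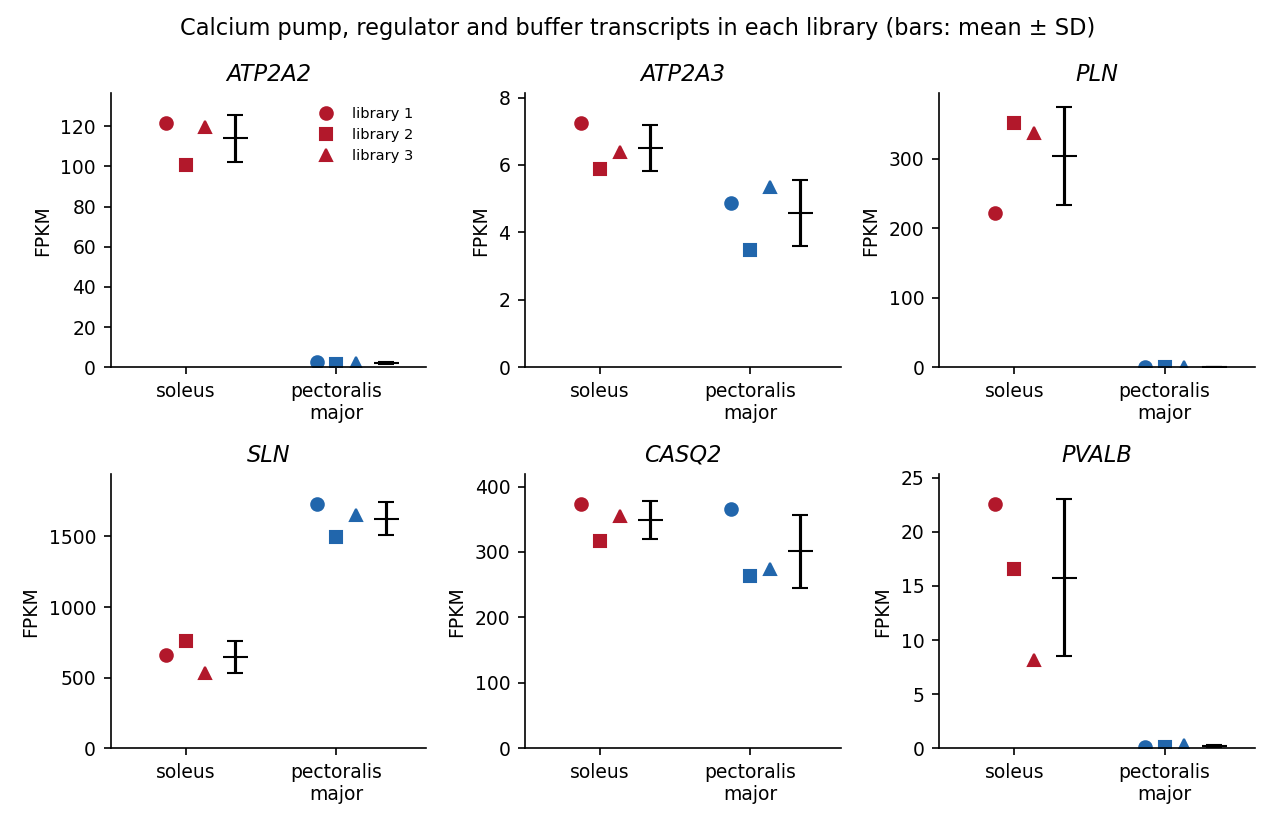
FPKM of each gene in the 3 soleus libraries (red) and the 3 pectoralis major libraries (blue), on a linear axis from 0 for each gene, with the mean and SD in black. ATP2A2, PLN and PVALB are close to 0 in every pectoralis major library, SLN is higher there, and CASQ2 overlaps between the muscles.

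The pump ATP2A2 had 121.7, 100.5 and 119.6 FPKM in soleus libraries 1 to 3, against 2.60, 1.68 and 2.26 FPKM in pectoralis major libraries 1 to 3. Every soleus library was far above every pectoralis major library. The means were 113.9 ± 11.7 FPKM in soleus and 2.18 ± 0.464 FPKM in pectoralis major (SD, n = 3 each), a 52.2-fold ratio of means. The log2 difference was 5.18 ± 0.15 (SE, limma adjusted p = 1.03e-07) and ranked as number 24 in size among all 9616 tested genes. The libraries with the same number gave differences of 5.09, 5.24 and 5.21, which were nearly equal. The pectoralis major values rested on 615 to 931 fragments, so the low level was measured and not at the limit of detection. By rank of mean FPKM among all 18239 genes, ATP2A2 was number 460 in soleus and number 6863 in pectoralis major. The assignment of fragments that match more than 1 pump gene is not stated in the labels. Which cells of pectoralis major held the ATP2A2 transcripts was not tested.

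The second pump, ATP2A3, was low in both muscles. It had 7.25, 5.87 and 6.39 FPKM in soleus libraries 1 to 3, against 4.88, 3.47 and 5.35 FPKM in pectoralis major libraries 1 to 3. The soleus libraries were higher without overlap, but the gap between the lowest of them and the highest pectoralis major library was small. The log2 difference was 0.44 ± 0.16 (SE, 95% interval 0.07 to 0.82, limma adjusted p = 0.0456), close to the 0.26 median of all tested genes. ATP2A3 did not pass under median-ratio scaling (0.11, adjusted p = 0.58), under quantile normalization (0.20, adjusted p = 0.33), when no filter was set (adjusted p = 0.0873) and among genes averaging 5 FPKM or more (adjusted p = 0.05001). Leaving out any single library other than pectoralis major library 3 also ended it, with adjusted p from 0.0571 to 0.137. Markers of cells that are known to express this pump mostly moved in the same direction. At an adjusted p under 0.05, 40.0% of all tested genes also did. All 8 endothelial markers were higher in soleus, with summed levels of 175.3 to 213.8 FPKM in soleus and 90.3 to 102.8 FPKM in pectoralis major. Of 8 leukocyte and thrombocyte markers tested, 7 were higher, with sums of 995.2 to 1102 FPKM in soleus and 514.3 to 654.5 FPKM in pectoralis major. The defining thrombocyte genes ITGA2B and GP9 were below 1 FPKM in all 6 libraries. The part of these cells in the ATP2A3 difference was not tested.

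Phospholamban showed the largest difference of the group. PLN had 222.1, 351.4 and 336.7 FPKM in soleus libraries 1 to 3, against 0.257, 0.171 and 0.311 FPKM in pectoralis major libraries 1 to 3. All pectoralis major libraries were below 1 FPKM, and soleus library 1 was the lowest of the soleus libraries. The means were 303.4 ± 70.8 FPKM in soleus and 0.246 ± 0.0707 FPKM in pectoralis major, a 1233-fold ratio of means. The log2 difference was 7.90 ± 0.18 (SE, limma adjusted p = 2.88e-08), number 10 in size among the 9616 tested genes. The fragments behind these values were counted as well. PLN had 22968 to 36861 fragments in soleus libraries and 17 to 31 in pectoralis major libraries, and voom on these fragments gave a log2 difference of 10.25 ± 0.49 (SE).

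The trace of PLN in pectoralis major was set beside the marker levels of other tissue components. The smooth muscle and pericyte markers, cells in which phospholamban is also known, summed to 309.2 to 441.1 FPKM in soleus libraries, against 204.9, 146.8 and 220.1 FPKM in pectoralis major libraries 1 to 3. Within pectoralis major, library 2 was the lowest both for this sum and for PLN, and library 3 the highest for both. The slow fibre markers summed to 25.9, 24.3 and 28.0 FPKM in the same 3 libraries, with library 2 again the lowest and library 3 the highest. ATP2A3 and PVALB had the same order of libraries in pectoralis major. PLN rested on only 25, 17 and 31 fragments in pectoralis major libraries 1 to 3, so its order may be counting noise. The part of smooth muscle or of slow fibres in the PLN trace was not tested.

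Sarcolipin went the other way. SLN had 657.5, 756.2 and 529.5 FPKM in soleus libraries 1 to 3, against 1731, 1498 and 1652 FPKM in pectoralis major libraries 1 to 3. Every pectoralis major library was above every soleus library. The means were 647.7 ± 113.7 FPKM in soleus and 1627 ± 118.6 FPKM in pectoralis major, where it was 2.51-fold higher. The log2 difference was -1.34 ± 0.15 (SE, limma adjusted p = 0.00019), and the 3 number-matched differences were -1.40, -0.99 and -1.64. SLN was abundant in both muscles. It stood at number 133 of all genes by mean FPKM in soleus and at number 38 in pectoralis major.

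Calsequestrin overlapped between the muscles and did not pass the test. CASQ2 had 373.6, 316.9 and 354.9 FPKM in soleus libraries 1 to 3, against 365.0, 263.6 and 274.6 FPKM in pectoralis major libraries 1 to 3. Pectoralis major library 1 lay within the soleus range and the other two below it. The log2 difference was 0.22 ± 0.15 (SE, limma adjusted p = 0.237), with a 95% interval of -0.12 to 0.57. Its direction changed with the scaling, to -0.17 under median-ratio scaling and -0.0085 under quantile normalization. It passed as higher in soleus without pectoralis major library 1 (0.37, adjusted p = 0.0489) and when mitochondrial transcripts were excluded from the totals (0.45, adjusted p = 0.0324). In the latter setting the median of all tested genes was 0.45 as well, so CASQ2 did not stand apart from the shift of all genes. CASQ2 ranked as number 217 of all genes in soleus and number 216 in pectoralis major. The gene table lists CASQ1, the name of the fast-fibre calsequestrin of mammals, among other names of this chicken gene, and no separate CASQ1 was analysed here.

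Parvalbumin, a fast-fibre buffer in mammals, was higher in soleus. PVALB had 22.6, 16.6 and 8.12 FPKM in soleus libraries 1 to 3, against 0.136, 0.0952 and 0.295 FPKM in pectoralis major libraries 1 to 3. The soleus libraries spread widely, with library 1 the highest and library 3 the lowest, but all were far above pectoralis major. The means were 15.8 ± 7.27 FPKM in soleus and 0.175 ± 0.105 FPKM in pectoralis major, an 89.9-fold ratio of means. The log2 difference was 3.73 ± 0.30 (SE, limma adjusted p = 3.61e-05). It was 6.49 ± 0.86 (SE) with voom on the fragments, of which pectoralis major libraries held only 10 to 31. Even in soleus PVALB was a minor transcript, number 2372 of all genes by mean FPKM.

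The order of soleus libraries for PVALB was also that of some fast myosin heavy chains, but not of all. MYH1A had 268.2, 152.6 and 79.5 FPKM and MYH1B 147.8, 55.0 and 38.9 FPKM in soleus libraries 1 to 3. Library 1 was the highest and library 3 the lowest for both, as for PVALB. MYH1C, with 531.2, 385.5 and 478.8 FPKM, had its lowest value in library 2. These heavy chain genes were picked from the fast fibre markers after their values were seen, and not all heavy chains of that list are given. The relation was not tested, and the heavy chain genes are close copies between which fragments may be split.

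The order of the levels differed between the muscles. In soleus it was SLN, CASQ2, PLN, ATP2A2, PVALB and ATP2A3. SLN was above CASQ2 in every soleus library, while CASQ2 and PLN overlapped and did not differ beyond their spread. PVALB and ATP2A3 stood apart in every soleus library, although in library 3 by only 8.12 against 6.39 FPKM. In pectoralis major the order was SLN, CASQ2, ATP2A3, ATP2A2, PLN and PVALB, with PLN and PVALB overlapping. ATP2A3 exceeded ATP2A2 in every pectoralis major library. Among replicate libraries the coefficient of variation was lowest for CASQ2 in soleus (8.29%) and for SLN in pectoralis major (7.29%), and highest for PVALB in both (46.1% in soleus and 60.1% in pectoralis major). The 6 genes summed to 1355 to 1547 FPKM in soleus and 1767 to 2104 FPKM in pectoralis major. SLN made up 39.1 to 48.9% of that sum in soleus and 82.3 to 85.4% in pectoralis major.

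**Figure D2:**
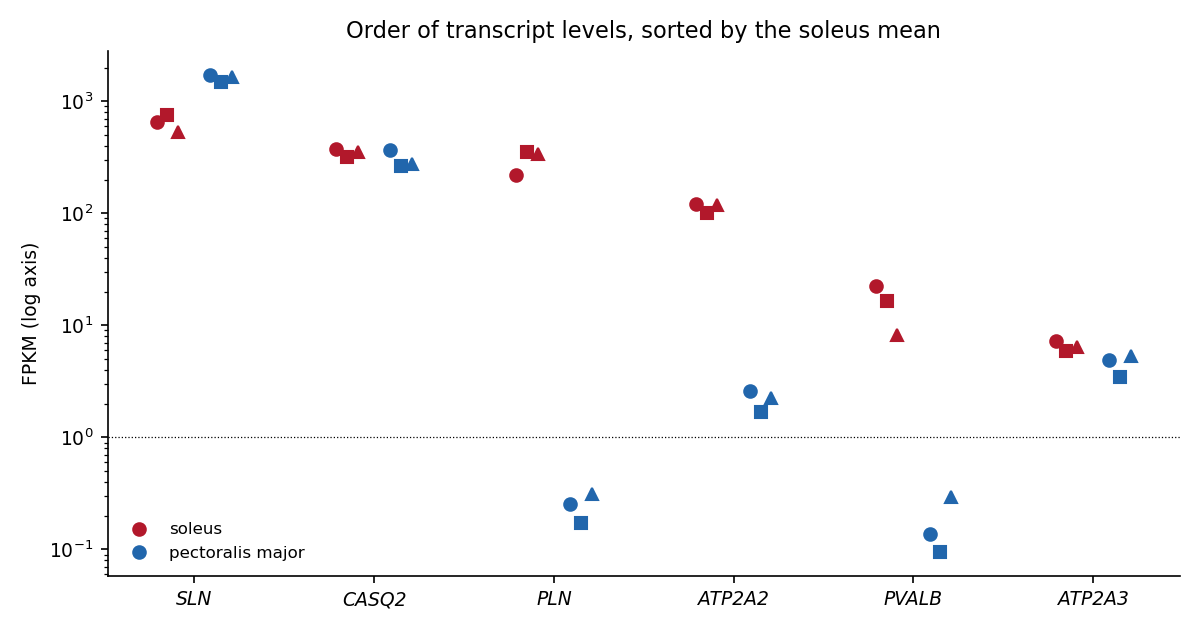
FPKM of the 6 genes in each library on a shared log axis, sorted by the soleus mean, with soleus in red to the left of pectoralis major in blue and 1 symbol per library number. SLN is the highest gene in both muscles, and PLN and PVALB lie below 1 FPKM (dotted line) only in pectoralis major.

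Ratios between the genes within a library do not depend on how libraries are scaled. The ratio of PLN to ATP2A2 was 1.83, 3.50 and 2.81 in soleus libraries 1 to 3, against 0.0986, 0.101 and 0.138 in pectoralis major libraries 1 to 3. Both transcripts were thus much lower in pectoralis major, PLN more so than the pump, and the mean log2 ratio differed by 4.56. The ratio of SLN to ATP2A2 was 5.40, 7.53 and 4.43 in soleus libraries 1 to 3, against 665.1, 889.8 and 732.3 in pectoralis major libraries 1 to 3. Phospholamban made up 25.2 to 38.9% of the PLN and SLN transcripts in soleus and 0.0114 to 0.0188% in pectoralis major. PLN therefore stayed below SLN in every soleus library, with a ratio of 0.338 to 0.636. ATP2A2 made up 94.4 to 94.9% of the ATP2A2 and ATP2A3 transcripts in soleus and 29.7 to 34.8% in pectoralis major.

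For PLN and SLN together over ATP2A2 and ATP2A3 together, the ratio was 6.82, 10.4 and 6.87 in soleus libraries 1 to 3, against 231.3, 290.9 and 217.2 in pectoralis major libraries 1 to 3. ATP2A1 is not part of this sum, so it is no ratio of inhibitors to all pumps. None of the 5 ratios computed overlapped between the muscles. Each gave p = 0.1 in a two-sided exact permutation test over libraries (adjusted p = 0.1 over the 5 ratios). This is the smallest p that 3 against 3 libraries allow, so the threshold of 0.05 could not be reached. With libraries of the same number taken as pairs, each ratio gave p = 0.25 in a two-sided exact test that swapped the muscles within pairs. That is the smallest p that 3 pairs allow.

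**Figure D3:**
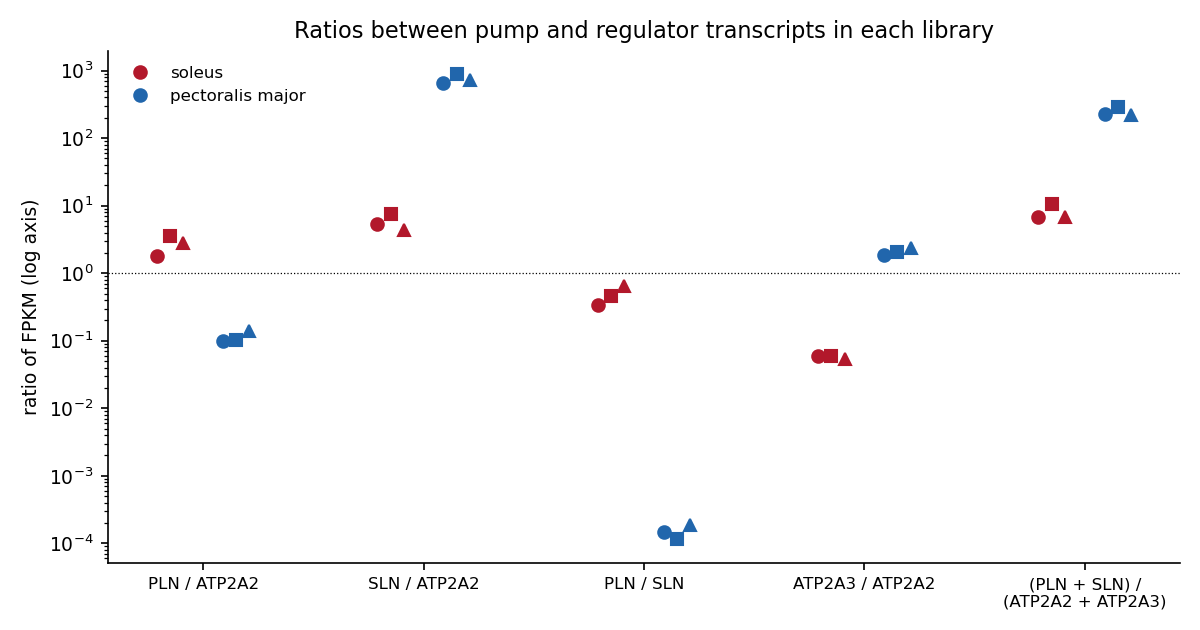
Ratios of FPKM between the named genes in each library on a log axis, soleus (red) to the left of pectoralis major (blue), with 1 symbol per library number. The ratio of PLN to SLN lies between 0.338 and 0.636 in soleus and between 0.000114 and 0.000188 in pectoralis major, and the ratio of ATP2A3 to ATP2A2 is above 1 (dotted line) only in pectoralis major.

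ATP2A2, PLN, PVALB and SLN kept their direction under every alternative run. Over the 8 alternatives that kept all libraries, the log2 difference of ATP2A2 was 4.85 to 5.72, that of PLN 7.56 to 10.25, that of PVALB 3.48 to 6.49 and that of SLN -1.73 to -1.12, and all of these passed the test. The highest values for PLN and PVALB came from voom, which adds no 1 FPKM. Leaving out each library in turn gave 5.06 to 5.28 for ATP2A2, 7.78 to 8.11 for PLN, 3.43 to 4.12 for PVALB and -1.46 to -1.20 for SLN.

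**Figure D4:**
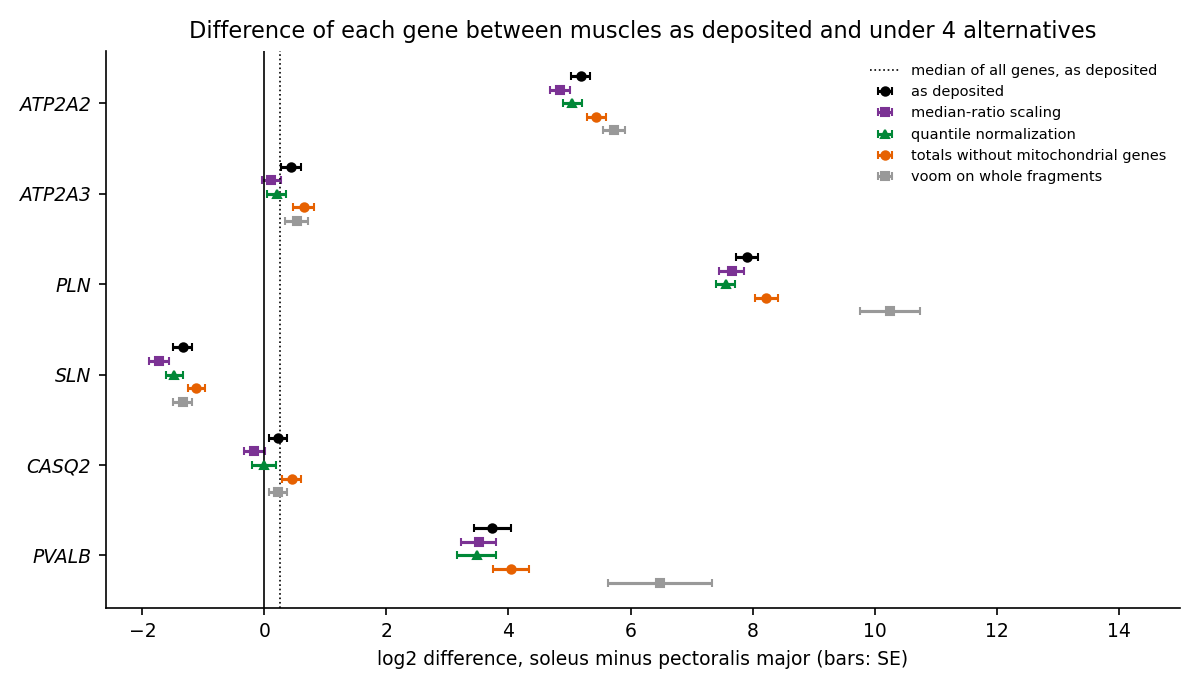
Log2 difference, soleus minus pectoralis major, of each gene with its SE, as deposited and under median-ratio scaling, quantile normalization, totals that exclude mitochondrial transcripts, and voom on whole fragments. ATP2A2, PLN, PVALB and SLN keep their direction in all 5, while ATP2A3 and CASQ2 lie near the median of all genes (dotted line, 0.26) and CASQ2 changes sign.

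For each gene that passed, the 3 genes of most similar pattern were looked up among 3562 other genes (3563 for ATP2A3) with a mean of at least 10 FPKM in the higher muscle. Likeness was the root mean square difference between gene-centred log2(FPKM + 1) values over the 6 libraries, and it is a description. Nearest to PLN were LMOD2, a leiomodin of the thin filament (0.22), the muscle LIM protein gene CSRP3 (0.56) and the slow myosin heavy chain gene MYH7B (0.60). LMOD2 had 244.6 ± 7.49 FPKM in soleus and 0.0372 ± 0.0540 FPKM in pectoralis major. All 3, like PLN, averaged below 1 FPKM in pectoralis major, so their nearness depends on the added 1 FPKM. Over the alternatives that kept all libraries, the log2 differences of LMOD2, CSRP3 and MYH7B reached 13.37, 12.82 and 13.46, against 10.25 for PLN. Nearest to ATP2A2 were ASB18 (0.16), ADPRHL1 (0.21) and FHL3, a LIM domain protein (0.24). ASB18 had 35.5 ± 6.46 FPKM in soleus and 0.121 ± 0.0661 FPKM in pectoralis major, so its nearness depends on the added 1 FPKM. Over the alternatives that kept all libraries, its log2 difference reached 8.24, against 5.72 for ATP2A2. ADPRHL1 had 281.8 ± 39.7 FPKM in soleus and 8.71 ± 1.66 FPKM in pectoralis major. Nearest to SLN were CLN6 (0.05), the fast troponin I gene TNNI2 (0.11) and DUS1L (0.11). TNNI2 had 4572 ± 516 FPKM in soleus and 11937 ± 474 FPKM in pectoralis major, with a log2 difference of -1.39 beside -1.34 for SLN. Nearest to PVALB were LSMEM2 (0.29), SMTNL1 (0.37) and the myosin light chain kinase gene MYLK3 (0.39). LSMEM2 and MYLK3, like PVALB, averaged below 1 FPKM in pectoralis major, so the same limit holds for them. Nearest to ATP2A3 were KIRREL, ECE1 and PCYOX1 (0.05 to 0.07). KIRREL (log2 difference 0.39) did not pass the test but did with the replicate block (adjusted p = 0.0334), and ECE1 and PCYOX1 (0.48 and 0.42) lost their calls under median-ratio scaling.

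The pump genes and their inhibitors share the annotation term sarcoplasmic reticulum membrane in the deposited table. Of 15 other tested genes with this term, 5 rose (CAMK2B, CHERP, ITPR2, KLHL41 and SYNE2) and 6 fell in soleus, with a median log2 difference of -0.06. CHERP (0.46) did not pass without soleus library 1 (0.38), soleus library 3 (0.47) or pectoralis major library 3 (0.43), under median-ratio scaling (0.13) or under quantile normalization (0.24), where ITPR2 (0.14) did not pass either. Other calcium handling genes were counted from lists of human symbols. Without the 6 genes, these lists held 56 tested genes, of which 26 rose and 18 fell, with a median of 0.29 beside 0.26 for all tested genes. Of all tested genes 40.0% rose and 17.4% fell, and each count of the lists is to be read beside these shares.

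Of 10 tested genes that act on calcium or on the pump within the reticulum, 7 rose and 2 fell in soleus (median 0.84). RCN2, a calcium-binding protein of the secretory pathway (1.39), S100A1, which binds the pump and the release channel in heart (1.32), and the chaperone CANX (1.25) had the largest differences. TMEM38A, a counter-ion channel of the reticulum and the most abundant of the list over both muscles, fell (-0.78), with 119.7 ± 17.1 FPKM in soleus and 206.2 ± 21.6 FPKM in pectoralis major. HAX1, which binds phospholamban, also fell (-1.11), and SRL, the luminal calcium-binding protein sarcalumenin, did not pass (-0.25), although it was called lower with no filter (adjusted p = 0.0389) and under median-ratio scaling (-0.63).

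Another cytosolic calcium-binding gene went the other way from parvalbumin. The calmodulin gene CALM2 fell by 1.79 on the log2 scale. CALM2 had 198.3 ± 38.2 FPKM in soleus and 679.5 ± 45.1 FPKM in pectoralis major, levels far above those of PVALB in either muscle.

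Of 15 tested genes for kinases, anchors, phosphatase subunits and related proteins that act on phospholamban, 6 rose and 7 fell in soleus (median -0.26). The calcium/calmodulin kinase gene CAMK2A (2.77) and PRKAR2B, a regulatory subunit of protein kinase A (2.03), rose. Other genes of the same kinases in the list went both ways, and some did not pass. PPP1R1A, an inhibitor of protein phosphatase 1, fell (-2.79), as did PPP1CA, a catalytic subunit of that phosphatase and the most abundant of the list (-1.50). PPP1CB, another catalytic subunit of the same phosphatase, rose instead (1.43), with 148.9 ± 11.0 FPKM in soleus and 54.6 ± 0.291 FPKM in pectoralis major. PPP1R1A varied widely, with 61.0 ± 33.6 FPKM in soleus and 405.9 ± 145.1 FPKM in pectoralis major.

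On the release side, 12 of 16 listed symbols were found, and RYR1 was not among them. Of 11 tested genes, CASQ2 included, 4 rose and 4 fell (median -0.06). CACNA1S, the voltage sensor (2.47), and FKBP1B, which binds the release channel (2.25), rose, as did CACNA2D1 (0.89) and ASPH (0.61). RYR3, a release channel of the reticulum, fell (-1.75), as did JPH1 (-1.55) and FKBP1A (-0.39). RYR3 was measured at 8.41 ± 0.472 FPKM in soleus and 30.7 ± 3.73 FPKM in pectoralis major. CACNG1, the most abundant of the list, fell as deposited (-0.52, adjusted p = 0.0145) but did not pass when mitochondrial transcripts were excluded from the totals (-0.30) or without soleus library 3 (-0.42) or pectoralis major library 3 (-0.45). FKBP1A passed in only 1 of the 6 fits that left out a library (adjusted p 0.0127 to 0.0714), the one without pectoralis major library 2, and not when mitochondrial transcripts were excluded (-0.17) or under quantile normalization (-0.37). The fallen genes therefore numbered 2 in place of 4 without soleus library 3, without pectoralis major library 3 or when mitochondrial transcripts were excluded. Under median-ratio scaling CACNA2D1 (0.52) and ASPH (0.27) did not pass, which left 2 of the list higher. For removal across the plasma membrane, 2 of 3 tested genes rose, the pump ATP2B1 (1.01) and the exchanger SLC8A3 (1.01), both at low levels of 2.97 ± 0.530 and 1.47 ± 0.235 FPKM in soleus. The most abundant of them, ATP2B4, had 10.6 ± 1.36 FPKM in soleus and 12.1 ± 1.11 FPKM in pectoralis major and did not pass as deposited.

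**Figure D5:**
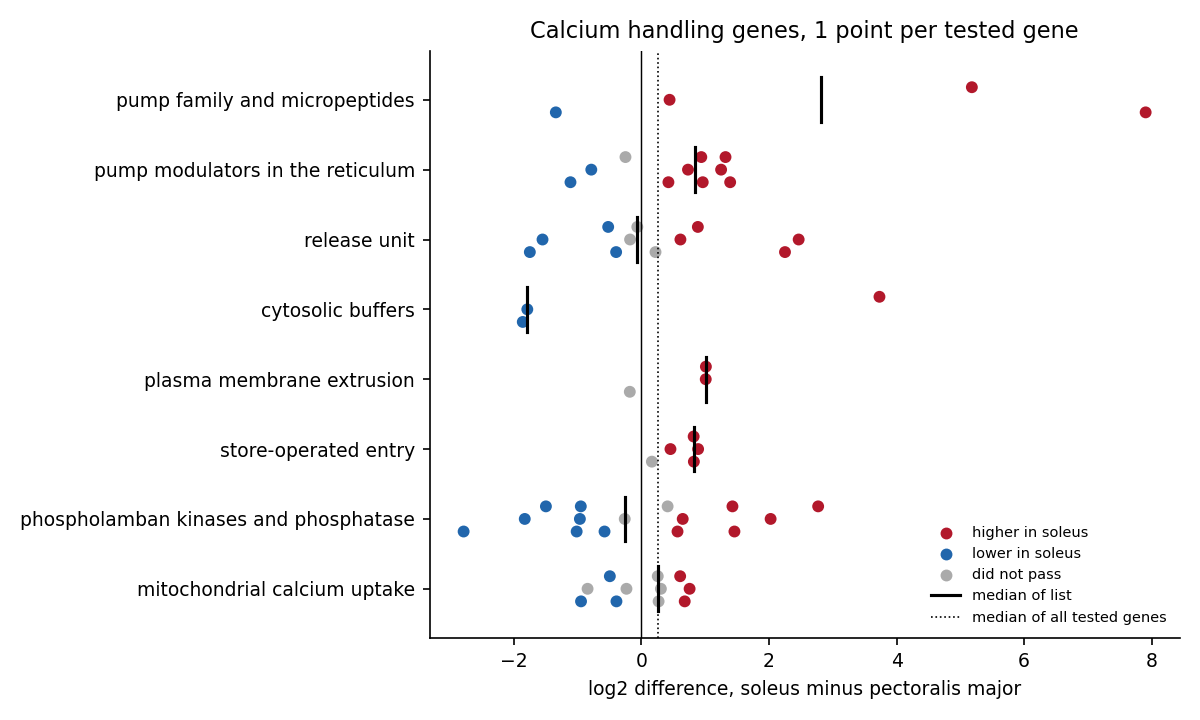
Log2 difference, soleus minus pectoralis major, of each tested gene of 8 calcium handling lists, coloured by whether it passed as higher or lower in soleus. Black bars give the list median and the dotted line the median of all tested genes (0.26). PLN, ATP2A2 and PVALB lie farthest to the right.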

How the data were processed

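Per the file headers, the authors deposited 1 table of FPKM values with a column per library. The submitters' processing notes name HISAT2, HTSeq, Cufflinks and R 3.2.0, and the build GRCg6a (other versions and the use of strand: not given in the sources used here). All 18239 gene numbers matched a gene table of GRCg7b. Names were kept as deposited, except for 10 that had turned into dates and were restored from that gene table. No coordinates were taken from it. Fragments and library totals were recovered from the steps between FPKM values. Of 94897 values above 0, 100.0% were whole multiples of the step found (relative tolerance 1e-06). The step was fitted to the same values of each gene, so that share could hardly be lower and is no check. Of 400 genes used for the totals, 99.25% had a whole length in bases. At 1 kilobase, 1 fragment was worth 0.0256 to 0.0275 FPKM. The main test was limma 3.58.1 (R 4.3.3) with a variance trend on log2(FPKM + 1); Python 3.11.15 with scipy 1.17.1 ran the exact tests. Scripts were tested on simulated data.

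Alternatives were a pseudocount of 0.1, no filter, only genes averaging 5 FPKM or more, median-ratio scaling, quantile normalization, library totals that exclude mitochondrial transcripts, voom on fragments, the replicate block, and leaving out each library, with the tested genes kept. Libraries of the same number deviated together over the 9616 tested genes (r = 0.398, 0.445 and 0.367 for numbers 1 to 3). What they share, a bird or something else, is not stated in the labels. The replicate block and the exact test within pairs take the number as a pair, while the main test and the exact permutation over libraries took no account of it.

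The genes and lists were chosen with earlier results of these data known. All found members are named. From each wider list, the 3 called genes of largest difference and the most abundant gene are named, and further genes appear as the 3 nearest in pattern, or, chosen after their values were seen, where a count of 5 or fewer refers to them and, from the marker lists, as MYH1A, MYH1B and MYH1C. A gene that the rule names is not reported here. Small RNA data were not used here.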

Additional observations from a re-analysis of the deposited data

How the results depend on the processing

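The calls of ATP2A2, PLN, PVALB and SLN kept their direction and side of the threshold in all alternatives run. ATP2A3 did not pass with no filter (0.44), among genes averaging 5 FPKM or more (0.44), under median-ratio scaling (0.11) or under quantile normalization (0.20), and its difference was 0.29 to 0.55 when single libraries were left out. CASQ2 was -0.17 under median-ratio scaling and -0.0085 under quantile normalization, passed at 0.45 with mitochondrial transcripts excluded from the totals, and was 0.13 to 0.37 when single libraries were left out. The median of all tested genes was also 0.45 with mitochondrial transcripts excluded. With the replicate block, the number in the titles as a pair, 4 of the 6 genes rose and 1 fell, as without it (ATP2A3 0.44, adjusted p = 0.0207), and among the other genes named the block changed only the call of KIRREL. Of the 56 other calcium handling genes, 17 rose and 22 fell under median-ratio scaling, against 26 and 18 as deposited. The share of calls that were higher in soleus over all genes also dropped there, from 69.7% to 41.7%. ATP2B4 was 0.026 with mitochondrial transcripts excluded from the totals and passed as lower under median-ratio scaling (-0.54, adjusted p = 0.0106), VDAC2 did not pass under median-ratio scaling (0.29), and STIM1 turned to -0.19 there. The cause of these changes was not tested. With 3 libraries per muscle, differences near the shift of all genes could not be placed on either side of it, and 10 to 31 fragments bound the precision of PLN and PVALB in pectoralis major.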

Other observations

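Of 5 tested genes of store-operated entry, 4 rose in soleus (median 0.82), beside 40.0% of all tested genes, which had a median of 0.26. The 4 were the channel genes ORAI3 (0.89), ORAI1 (0.82) and TRPC1 (0.82) and the sensor gene STIM2 (0.46). ORAI1, the most abundant of them, had 14.5 ± 1.86 FPKM in soleus and 7.79 ± 1.25 FPKM in pectoralis major. STIM2 did not pass with no filter (0.46), under median-ratio scaling (0.22), under quantile normalization (0.07) or without soleus library 1 (0.37), soleus library 3 (0.43), pectoralis major library 1 (0.32) or pectoralis major library 3 (0.50), which left 3 of the list higher in each. The sensor gene STIM1 did not pass (0.17), although it was called higher when mitochondrial transcripts were excluded from the totals (0.37). In that setting the median of all tested genes was 0.45.

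Of 11 tested genes of mitochondrial calcium uptake, 3 rose and 3 fell in soleus, with a median of 0.26, beside 0.26 for all tested genes. VDAC2, an outer membrane channel and the most abundant of the list, had 250.6 ± 8.21 FPKM in soleus and 156.0 ± 2.83 FPKM in pectoralis major, while its relative VDAC1 had 48.8 ± 5.82 FPKM in soleus and 95.3 ± 15.5 FPKM in pectoralis major. LETM1 (0.76) and MICU3 (0.61) also rose, and the uniporter gene MCU (-0.49) and VDAC3 (-0.39) fell, the last 3 of these named after their values were seen. The number that fell was 1 without soleus library 1, 1 without pectoralis major library 2 and 5 without pectoralis major library 3. It was 1, with 6 higher, when mitochondrial transcripts were excluded, and under median-ratio scaling 1 was higher. MCU did not pass without soleus library 1 (-0.42) or pectoralis major library 2 (-0.40), VDAC3 without soleus library 1 (-0.38), soleus library 3 (-0.32) or pectoralis major library 2 (-0.34), and MICU3 without soleus library 1 (0.56).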
